A study of Saccharomyces cerevisiae with 14 samples.

Results

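The mRNAs described here encode the enzymes with which budding yeast makes ergosterol and fatty acids. They are 34 genes taken by name from the 5843 protein-coding genes counted in the series. No filter on read counts was used, but the choice was made with earlier results of these data known. The list runs from the mevalonate pathway through squalene and lanosterol to ergosterol, and from acetyl-CoA carboxylase through fatty acid synthase and the desaturase to the elongation cycle. The measurement was CRAC (crosslinking and analysis of cDNA), in which RNA that ultraviolet light has joined to a tagged protein in living cells is purified, cut, reverse transcribed and sequenced. The 14 libraries come from strains of the haploid laboratory background BY4741, each group with 2 replicates. Hel2 with the HTP purification tag (genotype Hel2-HTP::URA3) was examined in wildtype cells and in cells that also carry new1-delta::KanMX6, in both cases at 20°C and at 30°C. New1 with the same tag (New1-HTP::URA3) was examined in wildtype cells at 20°C, and cells with no tag served as control at both temperatures. Hel2 is a ubiquitin ligase that recognises collided ribosomes. New1 is a translation factor of the ABC family, and the study asked where Hel2 is recruited when New1 is missing. The cultures at the 2 temperatures differed in volume, bead type, RNase treatment and steps of the library preparation, so temperature and preparation cannot be told apart. The labels give one medium for all samples, whereas the methods name a medium that also lacks uracil for the 20°C cultures.

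Ergosterol is the main sterol of fungal membranes. Its synthesis starts with acetyl-CoA, passes through mevalonate (HMG-CoA reductase is the main point of control) and farnesyl pyrophosphate, and then turns squalene into lanosterol and finally into ergosterol in a series of oxygen-dependent steps. Fatty acid synthesis uses malonyl-CoA from acetyl-CoA carboxylase (*ACC1*). Fatty acid synthase is built from a β subunit (*FAS1*) and an α subunit (*FAS2*), and both are very large proteins. *OLE1* encodes the desaturase that makes unsaturated fatty acids, and membranes of yeast depend on it.

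The study relates Hel2 recruitment to 3′-untranslated regions to the last sense codon of an mRNA. The ends of the coding sequences are therefore shown for the mRNAs whose values are given library by library. These are the 5 that end in AAA, which together with AGG and CGU forms the class with the strongest queues of ribosomes, and the highest per kilobase of the others. Each line gives the last 30 bases of the coding sequence, 5′ to 3′, with the last sense codon in capitals and the stop codon after it, read from the R64 assembly.
ERG13: uuuagaagaucuuacgauguuaaaAAAuaa
ERG8: aaagauccggaaacuuaucuugauAAAuaa
ERG20: uugaacaaaguuuacaagagaagcAAAuag
ACC1: aaagaaaaauuguugaagacuuugAAAuaa
FAS2: gucgcggucgccguuucuacuaagAAAuag
FAS1: gacaacugggaaaaguaugaacaaUCCuaa
ACB1: gaucaacugauugccaaguacuccUCUuag
ERG1: ccauuuuuguuuggugaguugauuGGUuaa

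In *ERG13* and *FAS2* the codon before the last is also a lysine codon (AAA and AAG). In the R64 assembly the coding sequences lie on chromosome XIII from 19060 to 20535 (*ERG13*, minus strand) and from 712316 to 713671 (*ERG8*, plus strand), and on chromosome X from 105014 to 106072 (*ERG20*, plus strand). *ACC1* lies on chromosome XIV from 654673 to 661374 (minus strand), *FAS2* on chromosome XVI from 108652 to 114315 (plus strand) and *FAS1* on chromosome XI from 100671 to 106826 (plus strand). *ACB1* and *ERG1* lie on chromosome VII, from 559731 to 559994 and from 846933 to 848423, both on the minus strand. No member ends in AGG or CGU, so the strongest class holds 5 of 34 members (14.7%) against 675 of 5843 genes (11.6%). The milder class, which holds cysteine, asparagine and serine codons and CGA, CGC and CGG, contains *HMG1*, *ERG12*, *ERG25*, *ERG3*, *FAS1*, *ELO1* and *ACB1* (7 of 34, 20.6%, against 937 of 5843 genes). The stop codon is UAA in 24 members (70.6%, against 47.4% of all genes). The 34 annotated features, untranslated regions included, are between 617 and 7825 nt long.

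The 10 tagged libraries held between 330612 and 1433713 sense reads on the genes used, and the untagged libraries between 356 and 310323. The deposited counts are reads, not collapsed to molecules, and the members had between 3.42 and 13.0 reads per distinct cDNA in the tagged libraries. Intervals from read numbers treat each read as independent, so they are too narrow even for counting error. *NEW1* had 0 and 0 reads in *new1Δ* at 20°C and 0 and 7 at 30°C, against 105 to 1192 in the wildtype libraries of Hel2-HTP. The header of the second *new1Δ* library at 20°C gives the input name of a New1-HTP strain, and that of the second New1-HTP library gives a New1-HTP strain without *HEL2*. The barcodes in the same headers match the labels, as do 0 reads on *NEW1* in the former and 143 reads on *HEL2* in the latter. The former also had 0 reads on *HEL2*, where the other Hel2-HTP libraries had 120 to 515. The first New1-HTP library had 1, so a low count of *HEL2* does not settle the strain. For several members, values that rest on the libraries with conflicting headers are also given without them. CPM, the usual depth-scaled read count, is relative to all sense reads of a library on the 5843 genes. It combines the amount of an mRNA with its crosslinking, and the 2 cannot be told apart without RNA levels. The study measured RNA levels in wildtype and *new1Δ* cells by nanopore sequencing, but they were not part of the counts used. Each value covers a whole annotated gene, because positions along the mRNA were not part of the counts used. The study's ratio of *new1Δ* to wildtype covers the 3′-untranslated region only, so the values here do not measure the same thing. A change confined to that region can be hidden in the count of a long gene.

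In tagged libraries the 34 mRNAs together made up 0.910% to 1.85% of all mRNA reads, with 95% Wilson intervals of at most ±0.0438 percentage points. *FAS1*, *FAS2* and *ACC1* alone supplied between 36.7% and 71.8% of these reads. Most other members were counted unevenly. Of the 34, 12 had over 3 reads in all 10 tagged libraries, and 21 had 0 reads in at least 1 of them. Between 0 and 16 members were at 0 in a library, with 16 in the second *new1Δ* library at 20°C, where only 2056 genes had any read. Where both replicates of Hel2-HTP wildtype had over 3 reads, the replicates differed 1.41-fold at the median of 25 members at 20°C and 1.70-fold at the median of 27 members at 30°C, with extremes of 6.13-fold at each temperature.

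**Figure D1:**
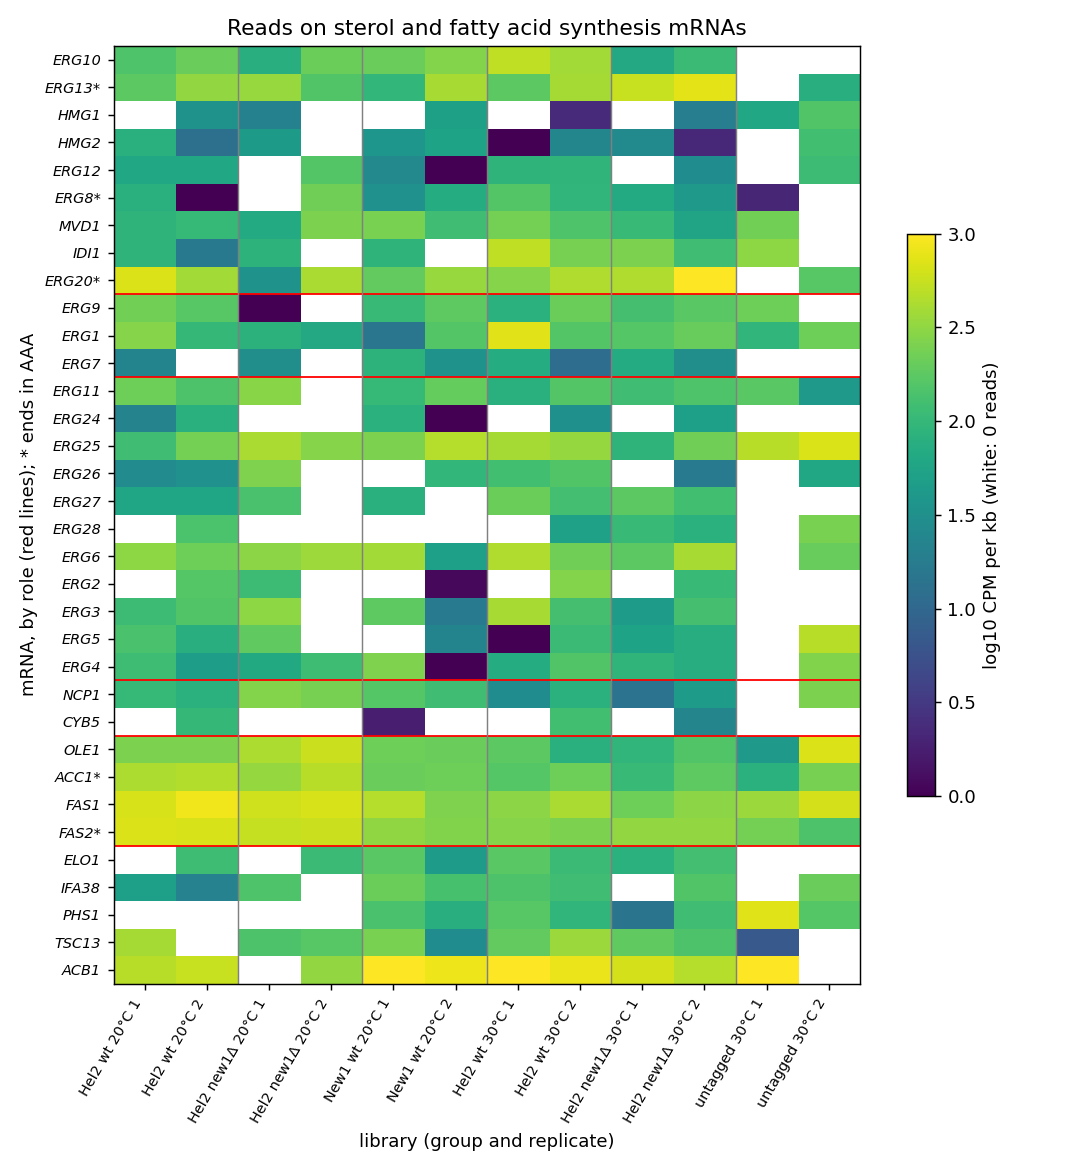
Level of each mRNA in 12 libraries, as log10 CPM per kilobase of annotated feature (colour, 0 to 3, values outside taking the end colours), with white cells for 0 reads. Rows are the 34 mRNAs by role, separated by red lines, and columns are the groups with their 2 replicates. The fatty acid synthesis rows are filled in every column, whereas 16 cells are white in the second *new1Δ* library at 20°C and 19 and 14 in the untagged libraries.

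Per kilobase, most of these mRNAs had more Hel2-HTP reads than the typical gene in wildtype cells. Their median over the 4 wildtype Hel2-HTP libraries was 130.1 CPM per kb, against 32.5 CPM per kb for the 5271 genes with a length, and 31 of the 34 stood above that median. The highest was *ACB1*, the acyl-CoA binding protein, with 795 ± 376 CPM per kb (SD, n = 4). It was followed by *FAS1* with 558 ± 250, *FAS2* with 475 ± 237, *ERG20*, the farnesyl pyrophosphate synthase, with 447 ± 173, and *ERG1*, the squalene epoxidase, with 318 ± 285 CPM per kb (SD, n = 4 each). Each of these neighbours in the order differed by less than its SD. *ACC1*, with 313 ± 148 CPM per kb, ranked 7 among the members although it had the third most reads, because its feature is 7.83 kb long. At the low end were the reductases of the mevalonate pathway, *HMG2* with 29.1 ± 34.8 and *HMG1* with 9.26 ± 17.0 CPM per kb, and *ERG7*, the lanosterol synthase, with 26.6 ± 31.7 (SD, n = 4 each). *HMG1* was at 0 in 5 of the 10 tagged libraries. *ERG28*, a scaffold of the sterol demethylation enzymes, and *CYB5*, cytochrome b5, were at 0 in 6 each. All these levels include the background of the purification, which is described below for untagged cells.

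The deletion of *NEW1* was compared with wildtype by edgeR's quasi-likelihood test, blocking on replicate pairs, with p-values adjusted after Benjamini and Hochberg for the 4835 genes tested. At 20°C none of the 34 mRNAs passed an adjusted p of 0.05, where 1.39% of all genes tested did. At an unadjusted p under 0.05 there were 3, all lower in *new1Δ* (5.63% of all genes were under it), and DESeq2 called 2, *ERG9* and *ACB1* (it called 5.19% of all genes). The median log2 fold change over all genes was −1.11 and the members' median was −0.53. The latter was 0.03 over the 13 members with at least 10 reads in every library, 0 without the second pair, and 0.77 as a ratio within pairs, centred as described below. At this temperature 10 members had a positive and 23 a negative fold change, and *PHS1* had 0 reads in all 4 libraries. *ERG9*, the squalene synthase at the branch toward sterols, had the lowest p and was singled out after its values were seen. Its wildtype libraries held 251 and 343 reads (337 and 239 CPM) and its *new1Δ* libraries 1 and 0, while New1-HTP cells had 100 and 267. The libraries of the 2 strains did not overlap, and the fitted log2 fold change was −8.33 (SE 2.54, adjusted p = 0.0701 from edgeR, and 0.00165 from DESeq2). It was −7.41 without the second pair and −10.51 without the first (adjusted p = 0.256 and 0.158 from edgeR). With numbers of distinct cDNAs it was −4.02 (adjusted p = 0.320), and edgeR's adjusted p ran up to 1 over the alternatives. The cDNA numbers are not those of sense reads alone. For *ERG9* the first *new1Δ* library had 3 cDNAs beside 1 sense read and 27 antisense reads. *ACB1* had 219 and 500 wildtype reads against 0 and 66 in *new1Δ* (294 and 349 against 0 and 199.6 CPM, adjusted p = 0.379 from edgeR and 0.0464 from DESeq2). Its fitted log2 fold change of −4.40 became −10.43 without the second pair and −1.15 without the first (adjusted p = 0.0507 and 0.851 from edgeR). *ERG24*, *ERG28* and *CYB5* had 0 reads in both *new1Δ* libraries. Against a floor of 3 reads per library, scaled with TMM, they were at least 14.1-fold, 8.91-fold and 7.997-fold lower in these counts. None passed (adjusted p = 0.979 for each from edgeR), and *ERG28* and *CYB5* were also at 0 in the first wildtype library. The floor covers counting error only. A count of 0 also occurred beside many reads in the same group, as for *TSC13* with 273 and 0 in wildtype.

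None of the 5 mRNAs that end in AAA passed the test at 20°C. *FAS2* had 4006 and 3856 CPM in wildtype and 3178 and 3357 in *new1Δ*, and *ACC1* had 3308 and 3568 against 2612 and 3751. *FAS1*, which ends in UCC, had 4444 and 5837 against 4162 and 4458. *ACC1* and *FAS1* overlapped between the strains and *FAS2* did not, and the fitted log2 fold changes were −0.41 (SE 0.44) for *FAS2*, −0.28 (SE 0.46) for *ACC1* and −0.38 (SE 0.41) for *FAS1*. *ERG13*, the HMG-CoA synthase, had 298 and 545 CPM in wildtype and 582 and 254 in *new1Δ*, so the replicates crossed. *ERG20* had 865 and 476 against 43.8 and 526, and *ERG8*, the phosphomevalonate kinase, had 126 and 0.697 against 0 and 345, so both strains overlapped for each. *ERG1* had 495 and 170 CPM in wildtype against 146 and 112 in *new1Δ*, which did not overlap. Of the 5 mRNAs ending in AAA, 1 had a positive fold change, with a median of −0.28, against a median of 0.16 over the 603 genes of the strongest class, of which 4.31% rose. The median of the 5 is the value of *ACC1*, which turned to 0.0855 with DESeq2. In the pair-centred ratios the median of the 5 was 0.99 against 1.87 over the class, and 1 of 5 was above 0 in both pairs, against 49.7% of 447 genes of the class. With the second pair left out, which removes the library with the conflicting header, or with the first left out, again no member passed the threshold in edgeR.

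**Figure D2:**
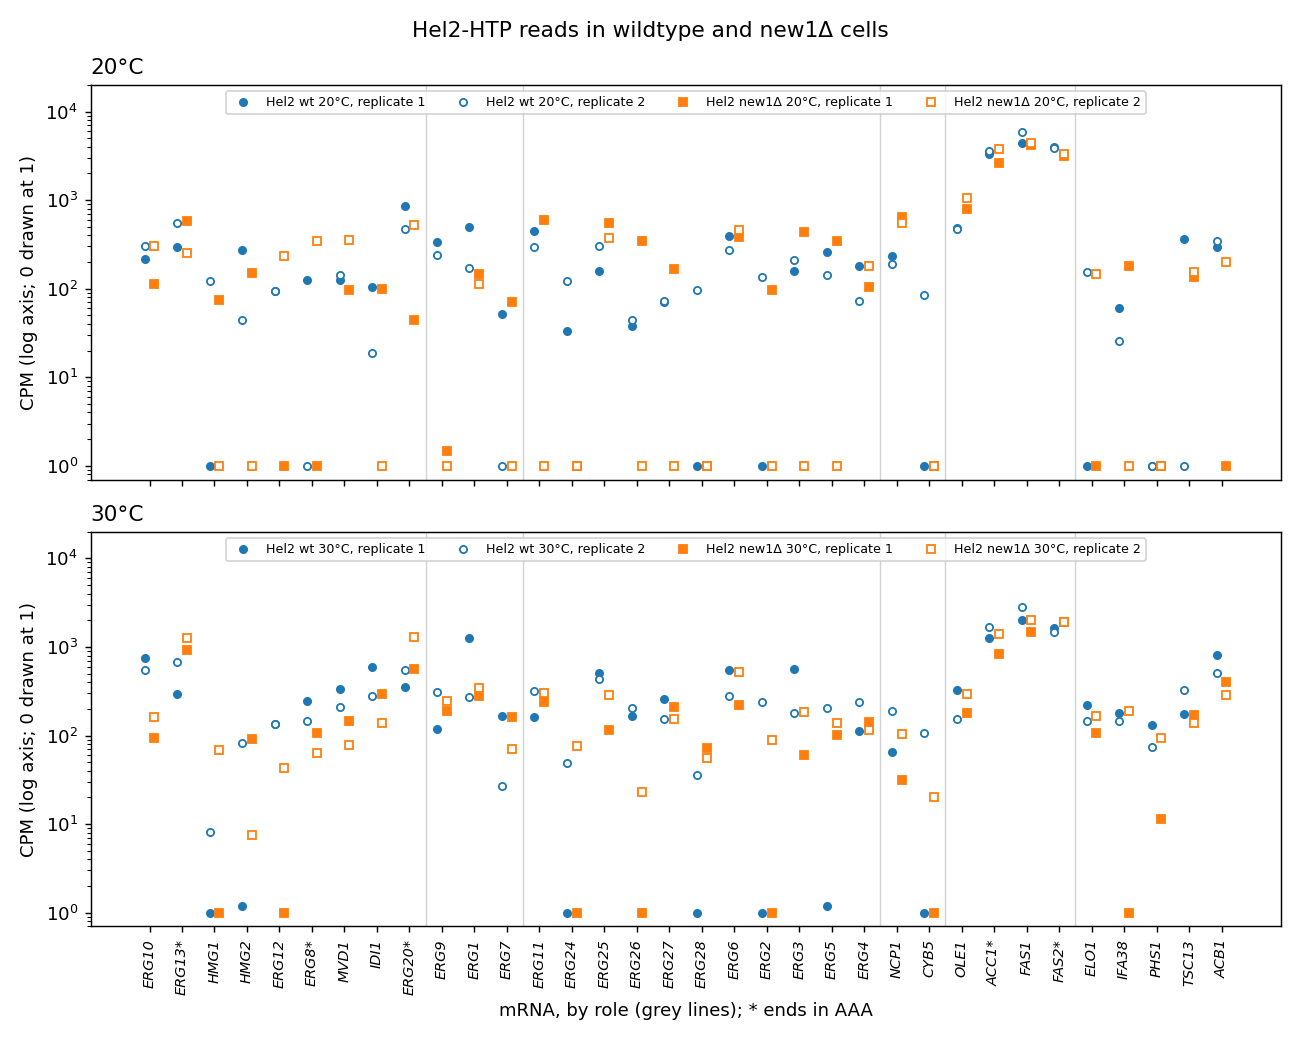
Hel2-HTP reads on the 34 mRNAs in wildtype (blue circles) and *new1Δ* (orange squares) at 20°C and 30°C, as CPM on a log axis with 0 drawn at 1; filled symbols are replicate 1 and open symbols replicate 2, and * marks the 5 mRNAs ending in AAA. At 20°C the 2 *new1Δ* values of *ERG9* (1.46 and 0 CPM) lie below both wildtype values (337 and 239), whereas *FAS1*, *FAS2* and *ACC1* are at 827 CPM or more in all 8 libraries.

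At 30°C none of the 34 passed in edgeR's test or in DESeq2, and none had an unadjusted p under 0.05. Of all genes tested 0.455% passed in edgeR, all of them higher in *new1Δ*, DESeq2 called 1.26%, and 2.21% had an unadjusted p under 0.05. The members' median log2 fold change was −0.19, against 0.13 over all genes. Here 3 of the 5 mRNAs ending in AAA were higher in *new1Δ* in both pairs, and in the pair-centred ratios 279 of 534 genes of the class (52.2%) were. *ERG13* had 297 and 668 CPM in wildtype and 929 and 1275 in *new1Δ*, which did not overlap, with a fitted log2 fold change of 1.55 (SE 0.82, adjusted p = 1 from edgeR). *ERG20* had 357 and 548 against 559 and 1298 CPM (1.21, SE 0.85), and *FAS2* had 1654 and 1468 against 1891 and 1912 CPM (0.55, SE 0.44). *ACC1*, with 1249 and 1683 CPM in wildtype and 827 and 1407 in *new1Δ*, overlapped between the strains, and *ERG8*, with 244 and 145 against 107 and 63.5 CPM, was lower in both pairs. The 5 had a median of 0.55, against 1.15 over the 603 genes of the strongest class, of which 3.32% rose. *FAS1* had 2017 and 2848 CPM in wildtype and 1460 and 2019 in *new1Δ*, *ERG1* had 1259 and 273 against 278 and 348, and *ACB1* had 810 and 510 against 400.2 and 289, lower in both pairs.

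The ratio of *FAS2* to *FAS1* reads compares the subunits of one enzyme within a library and does not depend on how libraries are scaled. It was looked at after the levels had been seen, so it is given without a test. At 30°C it was 0.820 and 0.515 in wildtype and 1.30 and 0.947 in *new1Δ*, so the *new1Δ* value was 1.58 and 1.84 times that of wildtype in the 2 pairs and the strains did not overlap. At 20°C it was 0.901 and 0.661 in wildtype against 0.763 and 0.753 in *new1Δ*, which overlapped. New1-HTP gave 0.589 and 0.885 at 20°C, and untagged cells gave 0.569 and 0.196 at 30°C.

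Whether the effect of the deletion differed between temperatures was tested with the interaction of strain and temperature in the same fit. No member passed in edgeR or in DESeq2, where 0.103% and 0.476% of all genes passed. At an unadjusted p under 0.05 there were 2 (2.46% of all genes), *ERG9* with a difference of −8.76 (SE 3.002, adjusted p = 0.636 from edgeR) and *ERG20* with −3.41 (SE 1.33, adjusted p = 1). Without the second pair at 20°C these became −7.67 and −5.06, and without the first −10.87 and −1.34. *ERG9* at 30°C had 101 and 114 wildtype reads against 183 and 97 in *new1Δ*. In the log2 ratio of *new1Δ* to wildtype within each pair (1 added to each count, each pair centred on its own median), 6 of 29 members with reads in both pairs were above 0 in both pairs at 20°C (20.7%, against 29.0% of 3296 genes) and 3 were below 0 in both (10.3%, against 25.4%). At 30°C it was 5 of 30 above (16.7%, against 27.0% of 4071 genes) and 11 below (36.7%, against 27.1%). The second pair at 20°C had a median of −4.09 before centring, so that centring raised every ratio of that pair.

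New1-HTP was set against Hel2-HTP in wildtype cells at 20°C, without pairs, across 4152 genes. The methods give different bead volumes and RNase times for the 2 tagged proteins, so protein and handling cannot be told apart. The untagged libraries at this temperature were too small to give a background. None of the 32 members tested passed in edgeR or in DESeq2 (*ERG28* and *CYB5* were too low to test), and 0.0482% of all genes passed in edgeR and 0.337% in DESeq2. At an unadjusted p under 0.05 there were 3 (2.1% of all genes), all lower with New1-HTP, and these were the genes of malonyl-CoA and fatty acid synthesis. *FAS2* had 1860 and 1565 CPM with New1-HTP against 4006 and 3856 with Hel2-HTP (log2 fold change −1.29, SE 0.32), *ACC1* had 1629 and 1691 against 3308 and 3568 (−1.14, SE 0.33), and *FAS1* had 3157 and 1768 against 4444 and 5837 (−1.18, SE 0.36). Each had an adjusted p of 1 from edgeR, and in each the groups did not overlap. Without the second New1-HTP library the values were −1.23 for *FAS2*, −1.24 for *ACC1* and −0.87 for *FAS1*, and without the first −1.34, −1.04 and −1.56. *OLE1* had 406 and 388 against 484 and 477 CPM. In all, 7 members were lower without overlap (15.4% of all genes were), and 8 were higher without overlap (19.7% of all genes). The higher ones included *ACB1*, with 678 and 511 against 294 and 349 CPM. They also included *PHS1*, the dehydratase of the elongation cycle, with 70 and 63 reads against 0 and 0. That is at least 26.4-fold against the floor of 3 reads, with an unadjusted p of 0.101 from edgeR. Of the others described above, New1-HTP libraries had 162 and 675 CPM of *ERG13* (105 and 687 reads), 241 and 436 of *ERG20*, 51.0 and 112 of *ERG8*, and 26.3 and 270.2 of *ERG1*. *ERG20* was lower than with Hel2-HTP without overlap, and *ERG13*, *ERG8* and *ERG1* overlapped. Members called remained at 0 when the second New1-HTP library was left out.

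Between the temperatures, the members with the lowest p in Hel2-HTP libraries from wildtype cells were those of fatty acid synthesis, though none passed. No gene of 4835 passed in edgeR, which makes the share of all genes called 0%, and 115 genes and 3 members (*FAS2*, *ACC1* and *FAS1*, all higher at 20°C) had an unadjusted p under 0.05 (2.38% of all genes). DESeq2 called 29 genes (0.6%), among them *FAS2*. All 4 members of the fatty acid synthesis and desaturation group were higher at 20°C without overlap, and they were the only members of 34 that were. As a share of the members this was not above the 14.9% of all genes that were higher without overlap. *FAS2* had 4006 and 3856 CPM at 20°C and 1654 and 1468 at 30°C (log2 difference 1.33, SE 0.37), *ACC1* had 3308 and 3568 against 1249 and 1683 (1.21, SE 0.45), and *FAS1* had 4444 and 5837 against 2017 and 2848 (1.07, SE 0.41). *OLE1* had 484 and 477 CPM at 20°C and 331 and 153 at 30°C (1.02, SE 0.81). The group's summed share of mRNA reads was 1.22% and 1.37% at 20°C and 0.525% and 0.615% at 30°C. In plain CPM at 30°C *FAS1*, *ACC1* and *OLE1* overlapped untagged cells and *FAS2* did not. *OLE1* had 77.3 and 1311 CPM in untagged cells. The untagged libraries at 20°C were too small to compare, so the part of background in these differences was not tested. In the other direction 11 members were lower at 20°C without overlap (19.1% of all genes), among them *ERG10*, acetyl-CoA acetyltransferase, with 217 and 299.9 against 745 and 556 CPM, and *IDI1*, the isopentenyl isomerase, with 103 and 18.8 against 592 and 278 CPM. *ERG13* (298 and 545 against 297 and 668 CPM) overlapped.

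**Figure D3:**
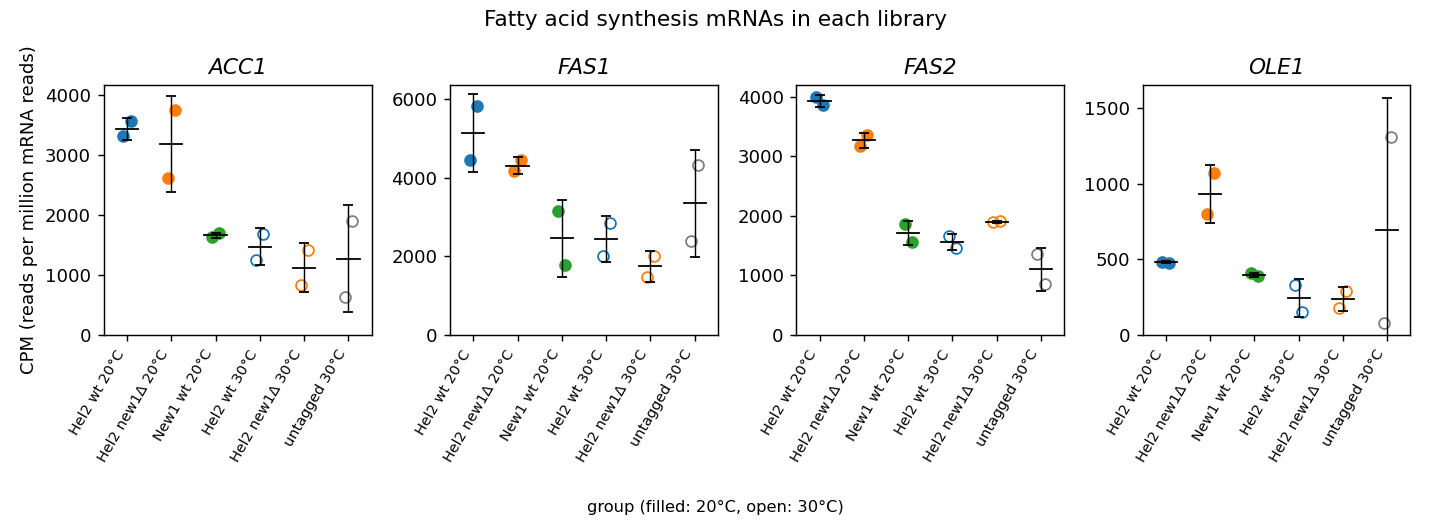
Reads on *ACC1*, *FAS1*, *FAS2* and *OLE1* in CPM (linear axes from 0) by group, with filled points for 20°C, open points for 30°C, a line for the mean and bars for the SD of 2 libraries. With Hel2-HTP both 20°C groups lie above both 30°C groups for each of the 4 mRNAs, whereas New1-HTP at 20°C has 1860 and 1565 CPM of *FAS2* against 4006 and 3856 with Hel2-HTP.

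In *new1Δ* cells the same 4 mRNAs were also higher at 20°C without overlap, together with *ERG25* and *NCP1* (6 of 34, where 9.87% of all genes were), and 9 members were lower without overlap (26.3% of all genes). The group's share was 1.07% and 1.26% at 20°C and 0.436% and 0.563% at 30°C. No member passed in edgeR, where 0.124% of all genes passed. At an unadjusted p under 0.05 there were 4 (6.91% of all genes), of which *ACC1* was higher at 20°C and *ERG13*, *ERG20* and *ERG9* were lower. DESeq2 called *ERG9*, *ACC1* and *FAS1*, and 3.54% of all genes. *OLE1* had 798 and 1068 CPM at 20°C against 179 and 292 at 30°C (log2 difference 1.51, SE 0.82). *FAS2* differed by 0.37 (SE 0.36), *FAS1* by 0.86 (SE 0.40) and *ACC1* by 1.02 (SE 0.45), with adjusted p of 0.719, 0.625 and 0.625 from edgeR. Without the second *new1Δ* library at 20°C these differences were 0.64, 1.13 and 1.07, and that of *ERG9* was −7.20 in place of −8.03. With the first *new1Δ* library at 20°C left out, edgeR called *ERG11*, the lanosterol demethylase (adjusted p = 0.0435), and with the second left out it called *ACB1* (adjusted p = 0.0235). In such fits the library that is left alone in its group is assumed to vary like the other groups.

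The background of the purification was measured in untagged cells at 30°C, where 310323 and 23650 mRNA reads were obtained. No member passed against Hel2-HTP in wildtype cells (0.92% of 4237 genes did, in edgeR), 10 of 33 tested had an unadjusted p under 0.05 (11.3% of all genes), all higher with Hel2-HTP, and DESeq2 called 6 (5.64% of all genes). TMM moved this comparison by 1.08 on the log2 scale in favour of Hel2-HTP relative to plain CPM, the median of all genes was then 0.60, and the members' median was 1.93. In plain CPM, 12 members were higher with Hel2-HTP without overlap (23.8% of all genes) and 2 were lower (17.8%). *ERG10* had 633 and 204 reads with Hel2-HTP and 0 and 0 in untagged cells. In reads it was at least 20.7-fold higher with TMM scaling and at least 9.54-fold in plain CPM (adjusted p = 0.0550 from edgeR and 2.9e-04 from DESeq2). *ERG3*, the sterol desaturase, had 479 and 66 against 0 and 0, at least 11.4-fold and 5.45-fold higher on these scales (adjusted p = 0.139 and 0.00685). *ERG13* had 252 and 245 reads against 0 and 3, *ERG20* had 303 and 201 against 0 and 5, and *ERG8* had 207 and 53 against 1 and 0. By contrast, *FAS1* had 2017 and 2848 CPM with Hel2-HTP and 2391 and 4313 in untagged cells (742 and 102 reads), so it was not above background in plain CPM, while the fitted log2 difference was 0.65 (SE 0.55). *ACC1* had 1249 and 1683 against 638 and 1903 CPM, *ERG1* had 1259 and 273 against 164 and 381, and *ACB1* had 810 and 510 against 615 and 0, all overlapping. *FAS2* had 1654 and 1468 against 1360 and 846 CPM, without overlap. *HMG1*, with 0 and 3 reads against 67 and 13, and *ERG25*, the sterol methyl oxidase, with 512 and 439 against 622 and 888 CPM, were higher in untagged cells in plain CPM, but the fitted log2 difference of *ERG25* was 0.41 in favour of Hel2-HTP. At 20°C the untagged libraries held 356 and 1793 mRNA reads, too few to test. Members had 3 reads in the first, and in the second all 57 reads on members lay on *TSC13*, the enoyl reductase of the elongation cycle, from 12 cDNAs.

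**Figure D4:**
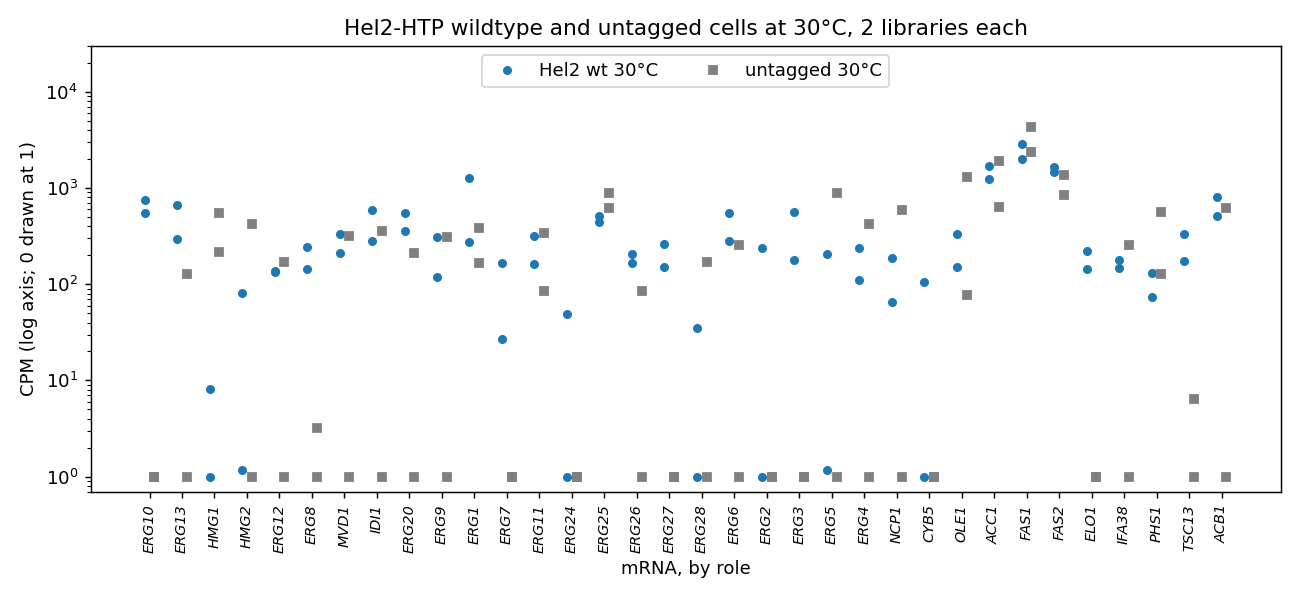
CPM of the 34 mRNAs at 30°C in Hel2-HTP wildtype libraries (blue circles) and untagged libraries (grey squares), 2 libraries each, on a log axis with 0 drawn at 1. *ERG10*, *ERG3*, *ERG27* and *ELO1* have no reads in either untagged library, whereas the untagged values of *FAS1* (2391 and 4313 CPM) reach those of Hel2-HTP (2017 and 2848 CPM).

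Other genes of these pathways were taken from lists chosen by function. Among the 4 electron donors and heme proteins of sterol enzymes, the 7 of 8 genes of mitochondrial fatty acid synthesis, the 13 of 14 regulators and the 8 of 9 genes of isoprenoid branches that were tested, none passed in edgeR for *new1Δ* against wildtype at either temperature. Of 12 genes of acyl-CoA handling and elongation 10 were tested, and 1 fell at 20°C and none at 30°C. This was *SCS7*, a hydroxylase of sphingolipid fatty acids that ends in GAA, with 268 and 630 wildtype reads against 0 and 0 in *new1Δ*. In reads it was at least 69.0-fold lower (adjusted p = 0.0215 from edgeR). Of 19 genes of sterol esters and transport 16 were tested, and 1 rose at both temperatures. This was *NPC2*, a sterol transfer protein that ends in AGG. At 20°C its wildtype libraries held 0 and 97 reads against 1070 and 344 in *new1Δ* (log2 fold change 6.74, SE 1.31, adjusted p = 8.3e-05 from edgeR), and at 30°C they held 0 and 38 against 467 and 551 (6.42, SE 1.19, adjusted p = 5.2e-05). Without the first pair, in which wildtype had no reads, the value of *NPC2* was 3.59 at 20°C and 4.03 at 30°C, and edgeR's adjusted p was 0.609 and 0.605. Without the second pair, which at 20°C holds the library with the conflicting header, the value was 13.1 (adjusted p = 0.154 from edgeR) at 20°C and 11.7 (adjusted p = 2.8e-04) at 30°C. DESeq2 on all libraries gave 8.39 and 7.58, with adjusted p of 0.0517 and 0.145. *SCS7* lost its call with either pair left out in edgeR, with a fitted log2 fold change of −11.39 without the first and −10.72 without the second, against −11.11 with both (adjusted p = 0.158, 0.283 and 0.0215). DESeq2 called it with −9.79 (adjusted p = 3.2e-04). None of the genes on these lists passed in the comparisons of New1-HTP with Hel2-HTP, of the temperatures or of Hel2-HTP with untagged cells.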

How the data were processed

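Alignment by the authors used Novoalign. They deposited, per annotated feature with untranslated regions, the sense read counts that pyReadCounters made (1.4.2 at 30°C, 1.4.4 at 20°C), not collapsed and not normalized, with numbers of distinct cDNAs and antisense counts. The RPKM values that the authors deposited beside them served only to recover feature lengths. The cDNA numbers exceed the sense reads of some features, so they are not a count of sense molecules alone. Of 6454 protein-coding features, 590 could not be matched to the R64 annotation, 19 lay on the mitochondrial genome or lacked a codon class, and another 2 lay at a shared locus. The remaining 5843 genes were used. CPM divides by the reads on these genes.

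Tests across genes used the edgeR package 4.0.16 under R 4.3.3 (TMM, filterByExpr, quasi-likelihood F-test, Benjamini-Hochberg over all genes tested, adjusted p of 0.05) on the 8 Hel2-HTP libraries with the replicate pair of each temperature as a block for *new1Δ* against wildtype, without it between temperatures, on the 6 tagged libraries at 20°C, and on the 6 libraries at 30°C. Standard errors are the fold change divided by the root of F. The study calls its replicates biological but does not state separate cultures, so p-values measure the spread between these libraries. The pairs follow the methods, in which each replicate had its own sequencing run. As a check, the correlation of paired libraries' deviations from the group mean was 0.0277 at 20°C and 0.0520 at 30°C across 4835 genes, which are not independent replicates. Lower bounds set a floor of 3 reads per library on TMM-scaled CPM, and against untagged cells also on plain CPM. They apply to reads and are not bounds for molecules. Alternatives were DESeq2 1.42.0, its size factors within edgeR, no filter, at least 10 reads in every library, cDNA numbers, the block removed or added, only the libraries compared, pseudocounts of 0.1 and 5, and each replicate left out. On simulated data with the spread estimated here, the fits recovered only a minority of the changed genes.

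Values are given in every library for members that pass a test, end in AAA, AGG or CGU, or are among the 5 highest per kilobase in wildtype Hel2-HTP libraries, and other values were chosen after they were seen. The members and lists were chosen with earlier results of these data known. Python 3.11.15 was used for tables and figures, with pandas 2.3.3, numpy 2.4.6, scipy 1.17.1 and matplotlib 3.10.9.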

Additional observations from a re-analysis of the deposited data

Results flagged for a closer look

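Antisense reads, which no comparison used, were above the untagged level on 2 members at 30°C, by the rule that both libraries of a group had over 3 such reads and a higher CPM than both untagged libraries. *ERG24* had 120 and 49 in *new1Δ* and 1 and 47 in wildtype at 30°C but did not meet the rule. In the second untagged library it had 21, which is 888 CPM there. Some other members had many in 1 library only, such as *ERG25* with 133 and 2 and *ERG12* with 49 and 1 in *new1Δ* at 30°C. On *ERG4*, the last reductase of ergosterol synthesis, there were 66 and 24 antisense reads in the Hel2-HTP wildtype libraries and 120 and 4 in the *new1Δ* libraries, against 1 and 0 in untagged cells, beside 95 and 88 sense reads in wildtype. The first New1-HTP library at 20°C had 48 and the second none. On *ERG27*, the sterol keto reductase, there were 29 and 14 antisense reads in *new1Δ* at 30°C and none in untagged cells, beside 0 and 9 in wildtype. Untagged libraries were shallower (a floor of 3 reads is 9.67 and 127 CPM there, against 3.53 and 8.18 in wildtype), and whether the reads come from neighbouring genes was not tested.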

How the results depend on the processing

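Of 70 alternative counts of members passing the threshold, 60 were the same as reported, that is 0. DESeq2 gave 2 for *new1Δ* against wildtype at 20°C, 1 for wildtype and 3 for *new1Δ* between temperatures, and 6 against untagged cells, where no filter gave 5 and cDNA numbers 3. With single libraries left out, the count ran from 0 to 1 for *new1Δ* between temperatures and from 0 to 6 against untagged cells (3 without the first untagged library and 6 without the second). Without the replicate block the count stayed at 0 for *new1Δ* against wildtype at both temperatures and for their difference, and with the replicate number as a block it stayed at 0 in the other 4 comparisons. Over all genes, however, leaving out the block lowered the calls from 67 to 20 at 20°C and from 22 to 6 at 30°C and ended those of *SCS7* (edgeR's adjusted p = 0.0611) and *NPC2* (0.501 and 1). *SCS7* also lost its call with DESeq2's size factors, cDNA numbers and only the libraries compared, and *NPC2* at 30°C with the last of these. DESeq2 raised them to 251 and 61, and a minimum of 10 reads in every library lowered them to 4 and 0, with 13 and 24 members left to test. The calls over all genes ran from 0 to 23 (5 reported) for the interaction, from 0 to 14 (2 reported) for New1-HTP, from 0 to 29 (0 reported) and from 2 to 171 (6 reported) between temperatures, and from 0 to 313 (39 reported) against untagged cells. *ACC1* turned sign at 20°C with DESeq2 and with its size factors (0.0855 and 0.0856). With 1 pair left out, *FAS1* at 20°C ran from −0.74 to 0.19 and *ACC1* at 30°C from −0.43 to 0.0194, and none of these passed a test. The median pair ratio of the members was 0.77 at 20°C (0.19 and 1.29 in the pairs, 1.08 and 0.27 with pseudocounts of 0.1 and 5) and −0.34 at 30°C (−0.99 and −0.02 in the pairs). DESeq2's size factors in place of TMM moved the comparisons by between −0.43 and 0.36 on the log2 scale. The spread between replicates was large (biological coefficient of variation 1.46 to 1.70), and a count of 0 does not bound the size of the changes.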
